A study of Mus musculus with 30 samples.

Results

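Menin and UTX peaks were examined at 30 mouse genes of cholesterol and fatty acid synthesis, out of 21887 protein-coding genes with a position in the RefSeq annotation of GRCm38. The 30 were chosen by name from the pathway, with earlier results of these data known. They comprise 18 genes for steps from acetyl-CoA to cholesterol (the sterol steps), 6 for fatty acid synthesis and desaturation (the fatty acid steps), 5 regulators of the SREBP system and 1 sterol carrier. A gene was counted as having a peak where a peak summit, the highest point of a peak, lay within 1 kb of its annotated start or end.

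The data are chromatin immunoprecipitation sequencing (ChIP-seq) peak lists of WT-MA9, a line of mouse acute myeloid leukaemia cells carrying pMSCV-MLL-AF9-GFP in stable form, so every condition shares the MLL-AF9 fusion oncogene and the GFP reporter. There are 4 lists, for each of the proteins Menin and UTX after vehicle (DMSO) and after the inhibitor MI-503, each from 1 library of cells harvested on day 4 of treatment. Menin, the product of Men1, is a scaffold of the MLL1 and MLL2 histone methyltransferase complexes, and UTX, the product of Kdm6a, is a histone demethylase found in the MLL3 and MLL4 complexes. The inhibitor prevents Menin from contacting MLL proteins, and the series title names a switch between MLL complexes as the subject. With 1 library per condition and a single line, no difference between lists has a replicate check, and no test was made. A further 26 of the 30 libraries in the labels were not analysed. Peak lists hold no expression values, so the labelled cell type was not checked against marker genes here.

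Cells build cholesterol from acetyl-CoA through mevalonate, isoprenoid phosphates, squalene and lanosterol, and build fatty acids from the same acetyl-CoA through malonyl-CoA. Both branches are switched on by SREBP transcription factors, which sit in the endoplasmic reticulum membrane bound to SCAP. When sterols are scarce SCAP carries them to the Golgi for cleavage, and when sterols are plentiful INSIG proteins hold SCAP back. SREBP2 acts mainly on sterol genes and SREBP1 mainly on fatty acid genes, often next to NF-Y, a factor that binds the CCAAT box.

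The promoters on which the peaks were centred are shown first, as the 250 bases before an annotated start in the RefSeq table (GRCm38.p6, the assembly of mm10), each read 5′ to 3′ on the strand of its gene. Capitals mark exact matches, on either strand, to the NF-Y box CCAAT, to the sterol regulatory element TCACNCCAC and to the E-box CACGTG. The first set holds members of the sterol steps and regulators with high peaks: Srebf2 (chr15:82147019-82147268, plus strand), Lss (chr10:76531355-76531604, plus strand), Hsd17b7 (chr1:169969206-169969455, minus strand) and Insig1 (chr5:28071162-28071411, plus strand).
Srebf2: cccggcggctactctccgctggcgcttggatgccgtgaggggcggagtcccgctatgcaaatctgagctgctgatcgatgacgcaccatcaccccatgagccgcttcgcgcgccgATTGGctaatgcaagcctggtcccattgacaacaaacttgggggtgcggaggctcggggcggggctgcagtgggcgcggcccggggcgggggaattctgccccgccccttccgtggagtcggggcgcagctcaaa
Lss: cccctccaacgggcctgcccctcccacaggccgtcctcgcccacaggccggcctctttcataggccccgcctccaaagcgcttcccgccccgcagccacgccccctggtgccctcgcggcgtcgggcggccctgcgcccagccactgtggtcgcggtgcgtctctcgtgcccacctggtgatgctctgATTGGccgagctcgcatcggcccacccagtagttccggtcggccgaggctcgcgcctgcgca
Hsd17b7: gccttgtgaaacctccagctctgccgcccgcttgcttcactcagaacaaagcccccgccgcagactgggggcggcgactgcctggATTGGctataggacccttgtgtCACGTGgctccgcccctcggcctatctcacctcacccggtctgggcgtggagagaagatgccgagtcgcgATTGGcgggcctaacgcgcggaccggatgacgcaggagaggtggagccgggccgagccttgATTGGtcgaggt
Insig1: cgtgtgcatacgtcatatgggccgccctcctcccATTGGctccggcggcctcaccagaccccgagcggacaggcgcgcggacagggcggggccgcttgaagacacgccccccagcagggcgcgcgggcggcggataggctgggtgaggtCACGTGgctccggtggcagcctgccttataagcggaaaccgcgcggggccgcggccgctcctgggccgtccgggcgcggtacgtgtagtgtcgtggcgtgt

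Hmgcs1 (chr13:119690101-119690350, plus strand) was added after its values were seen, because it holds the one match to the sterol regulatory element among the members. Dhcr7 (chr7:143822917-143823166, plus strand) is a sterol step whose first start has peaks and no capitals. The 2 fatty acid steps with a peak at a tabulated start are Acly (chr11:100528001-100528250, minus strand) and Fasn (chr11:120824548-120824797, minus strand). Ebp (chrX:8193513-8193762, minus strand) is a member with no peak, and none of the lists has one within 5 kb of it. It does not stand for Pmvk, Fdft1, Elovl6 and Insig2, which lack a peak at their outer ends but have peaks inside the gene.
Hmgcs1: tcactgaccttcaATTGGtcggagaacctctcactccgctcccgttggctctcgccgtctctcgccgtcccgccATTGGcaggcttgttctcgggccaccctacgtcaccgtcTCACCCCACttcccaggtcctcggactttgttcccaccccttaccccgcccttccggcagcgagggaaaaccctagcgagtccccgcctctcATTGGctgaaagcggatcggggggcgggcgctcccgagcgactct
Dhcr7: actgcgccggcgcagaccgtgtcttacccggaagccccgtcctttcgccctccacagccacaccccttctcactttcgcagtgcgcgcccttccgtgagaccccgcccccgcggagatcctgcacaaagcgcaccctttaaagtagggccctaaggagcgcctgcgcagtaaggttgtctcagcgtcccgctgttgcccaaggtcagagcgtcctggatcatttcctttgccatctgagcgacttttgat
Acly: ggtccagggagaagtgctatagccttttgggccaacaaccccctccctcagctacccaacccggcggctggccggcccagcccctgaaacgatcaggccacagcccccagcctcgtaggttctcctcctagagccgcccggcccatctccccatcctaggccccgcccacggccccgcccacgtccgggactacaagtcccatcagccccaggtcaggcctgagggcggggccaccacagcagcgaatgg
Fasn: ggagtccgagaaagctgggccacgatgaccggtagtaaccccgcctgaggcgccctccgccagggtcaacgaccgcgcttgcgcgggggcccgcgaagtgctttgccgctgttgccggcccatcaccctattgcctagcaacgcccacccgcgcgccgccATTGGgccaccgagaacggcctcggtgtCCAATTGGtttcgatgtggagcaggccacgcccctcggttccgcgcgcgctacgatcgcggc
Ebp: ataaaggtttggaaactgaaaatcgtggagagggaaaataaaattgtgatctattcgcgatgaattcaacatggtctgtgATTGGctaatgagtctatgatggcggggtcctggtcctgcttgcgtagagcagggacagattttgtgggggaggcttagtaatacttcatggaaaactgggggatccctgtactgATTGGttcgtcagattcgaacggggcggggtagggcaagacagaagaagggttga

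Most of the 30 genes carried Menin in vehicle and UTX under MI-503. In the Menin DMSO list 21 of 30 genes (70%) had a peak, against 31.2% of all protein-coding genes. In the UTX MI-503 list 24 of 30 (80%) had one, against 36.5% of all genes. The 21 genes with a Menin peak were all among the 24 with a UTX peak, and 28.4% of all genes had both. Fdps, Acaca and Srebf1 had UTX alone, and Pmvk, Fdft1, Ebp, Elovl6, Scd1 and Insig2 had neither at their outer ends. The other lists held no peak at any of the 30 genes: Menin MI-503 has a peak at 0.00914% of all genes (2 genes) and UTX DMSO at 0.777% (170 genes).

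The lists differ in length. Menin had 11195 peaks in vehicle and 8 with inhibitor, and UTX had 217 in vehicle and 14231 with inhibitor. By the read pileups recovered from the deposited values, Menin with inhibitor was sequenced to 1.35 times its input and UTX in vehicle to 1.14 times its input, while the pileups of both long lists are whole reads, as for a library no deeper than its input. The narrowest peak, which follows the fragment length set in peak calling, was 179 bp in both long lists, 62 bp for Menin MI-503 and 127 bp for UTX DMSO. The part of depth and of fragment length in these counts was not tested. The UTX DMSO list reached down to summits of 11 reads. The 24 member summits of the UTX MI-503 list, which had passed the peak call of that list, held 11 to 63 reads of their own library. Nsdhl and Srebf1 were at 11. Over all its peaks the UTX MI-503 list reached down to 7 reads, with a median of 14. Whether the member summits would have been called in the UTX DMSO library was not tested. Across the genome the summit of the UTX DMSO list nearest to a member lay 4972 bp from Tm7sf2, and none lay within 5 kb of any of the other 29 genes.

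**Figure D1:**
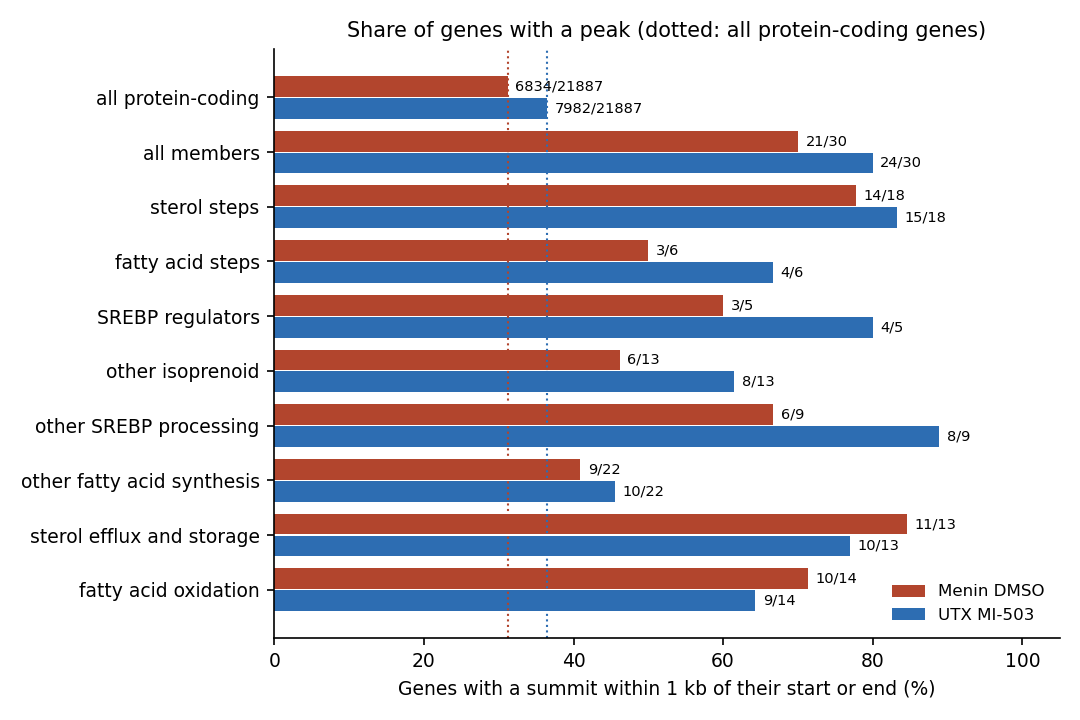
Share of genes with a summit within 1 kb of their start or end (%, from 0), for Menin DMSO (red) and UTX MI-503 (blue), in all protein-coding genes, the 30 genes, their role groups and related lists. Numbers beside the bars are genes with a peak over genes in the list, and dotted lines repeat the shares of all genes; 21 and 24 of the 30 genes had a peak against 31.2% and 36.5% of all genes.

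Fold enrichment, the authors' value of a peak's pileup over its local background, ran higher at these genes than over all genes with a peak. Where a gene had several such peaks the one with the highest fold was taken. The median fold was 9.84 at the 21 members with a Menin DMSO peak, from 3.99 to 21.8, against 7.34 over all genes with such a peak. For UTX MI-503 it was 14.8 at 24 members, from 6.57 to 35, against 10.1 over all genes. Fold values are used here to order peaks within a list, since the lists have different inputs and depths. Summits at the members held 16 to 101 reads in the Menin library (median 48) and 11 to 63 reads in the UTX library (median 28.5). Over all peaks of these lists, also those away from gene ends, the medians were 29 and 14. That is a different set of peaks from the highest one at each gene, so the read medians are not a like comparison.

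Among the sterol steps 14 of 18 genes (77.8%) had a Menin DMSO peak and 15 of 18 (83.3%) a UTX MI-503 peak. Among the fatty acid steps the counts were 3 of 6 (50%) and 4 of 6 (66.7%). The median Menin fold was 8.48 at the sterol steps and 10.8 at the fatty acid steps, and the median UTX fold was 14.6 and 8.21. In the Menin list the fatty acid genes with a peak therefore lay above the sterol genes by median fold, and in the UTX list they lay below. With 3 or 4 fatty acid genes behind a median, neither order is separated from the spread among genes: the folds of the fatty acid steps lie inside the range of the sterol steps in both lists.

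The early mevalonate steps all carried both proteins up to isopentenyl phosphate, except Pmvk. Acat2, the cytosolic acetoacetyl-CoA thiolase, had a Menin peak of 7.13-fold and a UTX peak of 12-fold. Hmgcs1, the synthase that makes HMG-CoA, had 5.22-fold and 15.1-fold. At this gene the Menin peak stood on a background of 2.44 times the lowest of the list, and the summit held 34 Menin reads and 29 UTX reads. Mvk, mevalonate kinase, had 8.3-fold and 13.2-fold, with both summits on the same base (chromosome 5, 114444157).

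Mvd, which decarboxylates mevalonate diphosphate, had 8.66-fold for Menin and 18.1-fold for UTX, with summits 1 bp apart. A further UTX peak of 6.57-fold lay 793 bp beyond the 3′ end of Mvd. Idi1, the isopentenyl diphosphate isomerase, had 6.5-fold and 20.2-fold, with the summits 289 and 204 bp downstream of its start. The UTX peaks of these mevalonate genes ranked higher in their list than the Menin peaks did: for Idi1 92.8% of the UTX list and 58.9% of the Menin list lay below by −log10 q, and for Hmgcs1 86.1% and 51.4%.

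Pmvk, phosphomevalonate kinase, had no peak at either outer end, but carries a second RefSeq start inside the gene. There UTX MI-503 had peaks of 5.31-fold, 246 bp upstream, and 6.95-fold, 663 bp upstream, and Menin had none within 5 kb. Fdps, farnesyl diphosphate synthase, had a UTX peak of 7.33-fold 104 bp outside its annotated end coordinate. The nearest Menin DMSO summit of Fdps lay 3536 bp outside the gene, at 5.64-fold. Fdft1, squalene synthase, which commits farnesyl groups to sterols, had no peak within 1 kb of its outer ends. A pair of peaks lay 3634 bp (Menin, 7.81-fold) and 3689 bp (UTX, 21.9-fold) inside Fdft1, and no RefSeq promoter entry was available to place an inner start there.

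Lss and Sqle, at the squalene steps, had the highest Menin folds among the sterol steps. Lss, lanosterol synthase, which closes the sterol rings, had the highest Menin fold of the 30 genes, 21.8 (chromosome 10, 76531111 to 76531790, 94 reads), with UTX at 19.1-fold. Sqle, squalene epoxidase, a rate-limiting oxygenase, had 17.4-fold (73 reads) and 16.3-fold (30 reads). Cyp51, lanosterol 14-demethylase, had 9.84-fold and 22.3-fold. In the Menin list 97.4% of peaks ranked below that of Lss and 94.6% below that of Sqle, and in the UTX list 92.5% and 88%.

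Of the later sterol steps Hsd17b7 stood apart. Hsd17b7, a 3-keto-sterol reductase, had a Menin peak of 17.3-fold (82 reads) and the highest UTX fold of the 30 genes, 35 (chromosome 1, 169969040 to 169969535, 63 reads), rank 67 of 14231 by −log10 q. Msmo1, the C4-methylsterol oxidase, had 11.1-fold for Menin and 11-fold for UTX. Dhcr7, the last reductase on the way to cholesterol, had 9.99-fold and 14.6-fold at its first start and a second pair, of 6.62-fold and 8.62-fold, 65 and 91 bp upstream of an inner start, at position 143830214. Sc5d, the C5 desaturase, had 5.43-fold and 11.1-fold.

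Tm7sf2 and Nsdhl were the lowest of the sterol steps with a Menin peak. Tm7sf2, a C14 sterol reductase, had 4.8-fold for Menin, on the richest background of any member at 3.14 times the lowest, and 8.21-fold for UTX at 2 peaks of equal fold, of which the nearer was used after the tie was seen. Nsdhl, the C4 decarboxylase on the X chromosome, had 3.99-fold (16 reads) and 6.57-fold (11 reads), and 7.09% of the Menin list and 35.2% of the UTX list ranked below it. Ebp, the sterol isomerase that is also on the X chromosome, had no peak in any list within 5 kb of the gene.

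**Figure D2:**
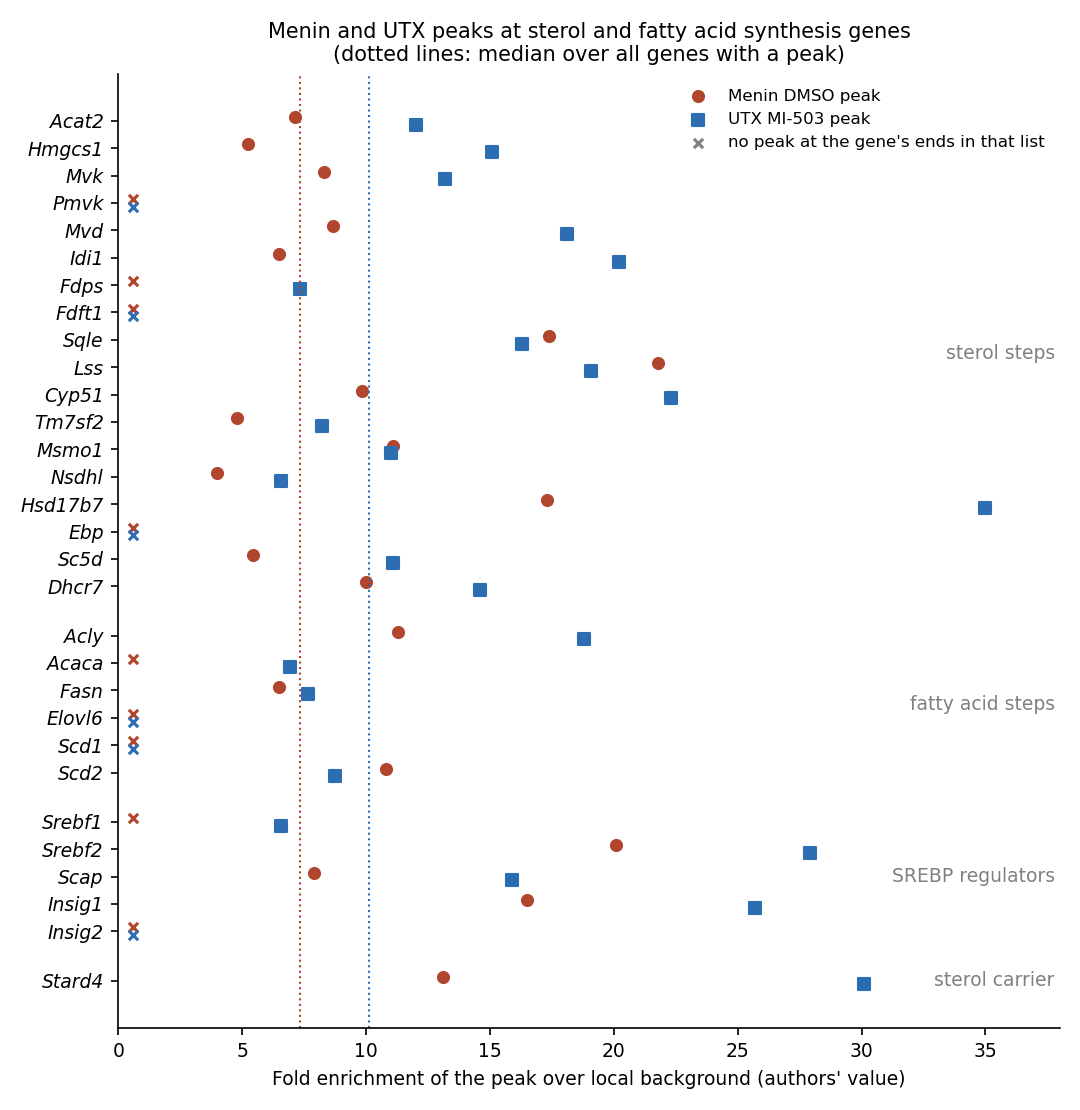
Fold enrichment of the peak at each of the 30 genes (authors' value, linear axis from 0), in pathway order, for Menin DMSO (red circles) and UTX MI-503 (blue squares); crosses mark genes with no peak at their outer ends and have no fold value. Dotted lines are the medians over all genes with a peak, 7.34 and 10.1; Lss has the highest Menin point at 21.8 and Hsd17b7 the highest UTX point at 35.

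The fatty acid steps divided gene by gene. Acly, ATP citrate lyase, which supplies cytosolic acetyl-CoA to both branches, had the strongest pair, with Menin at 11.3-fold (chromosome 11, 100527891 to 100528310, 60 reads) and UTX at 18.8-fold (38 reads). Fasn, fatty acid synthase, had 6.5-fold and 7.66-fold at its tabulated start, 596 and 721 bp inside the outer end of the gene. A second pair at Fasn, of 4.83-fold and 9.85-fold, lay 393 and 561 bp downstream of that start.

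Scd2, a stearoyl-CoA desaturase, had 10.8-fold for Menin (48 reads) and 8.76-fold for UTX (15 reads). Its neighbour in the genome, Scd1, the desaturase that predominates in liver, had no peak within 5 kb in any list. The 2 genes make the same kind of enzyme, and of this pair Scd2 alone had peaks. Elovl6, the elongase that takes palmitate to stearate, had none at its ends, but both summits lay on the same base 4023 bp downstream of its start, at 5.85-fold and 9.24-fold, and UTX had a further 5.8-fold peak 1542 bp downstream.

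Acaca, acetyl-CoA carboxylase, which makes malonyl-CoA, had a UTX peak of 6.94-fold (13 reads) 110 bp inside its outer start. An annotated end of Tada2a, an acetyltransferase complex gene, lay 101 bp from that summit. Menin DMSO had 3 peaks inside Acaca, of 3.74-fold, 6.79-fold and 4.88-fold, 18583, 49951 and 108864 bp from the nearer end of the gene. The one Acaca start with a RefSeq promoter entry lies 65693 bp downstream of the UTX summit, and neither protein had a peak within 1 kb of it.

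Regulators of the pathway carried some of the highest peaks. Srebf2, which encodes SREBP2, had a Menin peak of 20.1-fold (chromosome 15, 82146681 to 82147463) with 101 reads at its summit, the most of any member, and a UTX peak of 27.9-fold with 59. Insig1, which retains SCAP in the endoplasmic reticulum and is itself an SREBP target, had 16.5-fold (71 reads) and 25.7-fold (46 reads). Scap, the sterol sensor and escort, had 7.92-fold and 15.9-fold. The Srebf2 peaks ranked 277 of 11195 for Menin and 187 of 14231 for UTX by −log10 q.

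Stard4, a cytosolic cholesterol carrier, had peaks of 13.1-fold (79 reads) and 30.1-fold (54 reads), the second highest UTX fold of the 30 genes after Hsd17b7. In the UTX list 99.5% of peaks ranked below Hsd17b7, 98.7% below Srebf2, 98.6% below Stard4 and 97% below Insig1. In the Menin list 95.5%, 97.5%, 93.3% and 93.8% of peaks ranked below them.

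Srebf1 and Insig2, the partners of Srebf2 and Insig1, were counted as without Menin because their peaks lie at inner starts. Srebf1, which encodes SREBP1, had a UTX peak of 6.57-fold near its 3′ end, 857 bp from the neighbouring gene Rai1. At the 3 RefSeq starts of Srebf1 both proteins had a pair of peaks: Menin 6.88-fold and UTX 7.11-fold at position 60210471, 5.52-fold and 12-fold at position 60220627, and 5.68-fold and 7.8-fold at 305 and 327 bp upstream of position 60222581. Insig2 had a pair of 6.3-fold and 15.5-fold, 170 and 131 bp downstream of its start at position 121328024, and no peak within 1 kb of its outermost start.

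Counting summits within 1 kb of any start in the RefSeq promoter table, a definition chosen after the values were seen, gave 20 of 24 members with an entry for Menin DMSO, against 33.5% of 17492 genes with an entry. For UTX MI-503 it gave 21 of 24, against 39.1%. By this count all 5 regulators carried both proteins, as did 13 of 15 sterol steps with an entry, and Pmvk gained UTX. Among the fatty acid steps Acly and Fasn carried both and Acaca and Elovl6 neither, so 2 of 4 with an entry had a peak in each list; Scd1, Scd2 and Stard4 are among the 6 members with no entry.

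**Figure D3:**
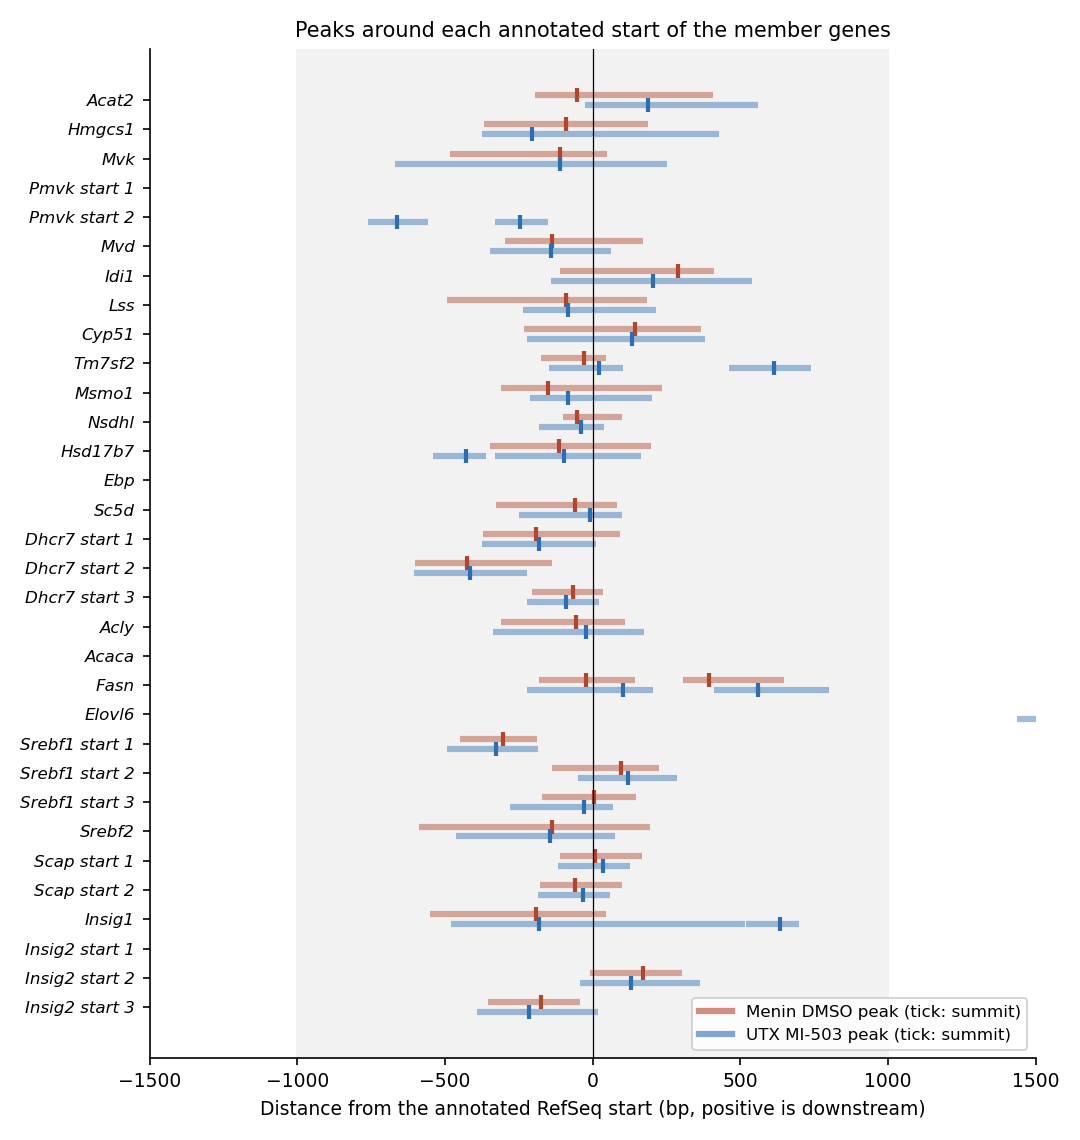
Peaks of Menin DMSO (red bars) and UTX MI-503 (blue bars) around each RefSeq start of the 24 genes with a promoter entry, with summits as ticks; the horizontal axis is distance from the start in bp, positive downstream, and grey marks 1 kb on either side. Paired bars overlap at most starts, Ebp, Acaca, Elovl6 and the outermost starts of Pmvk and Insig2 are empty within 1 kb, and all 3 starts of Srebf1 carry a pair.

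Menin and UTX peaks lay on the same stretches of these genes. At all 21 members with both, the peaks shared at least 50% of each other's length, against 78.2% of all 6210 genes with both. Summits lay within 100 bp of each other at 18 of 21 genes (85.7%), against 78.4% of all genes with both. The median distance between summits was 23 bp, from 0 bp at Mvk to 238 bp at Acat2, against a median of 40 bp over all genes. Menin in vehicle and UTX in MI-503 differ in antibody and in treatment, which cannot be told apart in this pair of lists.

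The 2 sets of folds were also ordered alike to a degree. Over the 21 genes the Spearman correlation between Menin DMSO fold and UTX MI-503 fold was 0.66, against 0.43 over the 6210 genes with both. It is a description across genes of 2 libraries, which share the cell line and the base composition of each promoter, and genes are not independent replicates. Hsd17b7, Srebf2, Insig1 and Stard4 lay high in both lists and Nsdhl, Tm7sf2 and Fasn low in both, while Acat2, Hmgcs1, Idi1 and Sc5d lay above the median of all genes for UTX and below it for Menin.

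**Figure D4:**
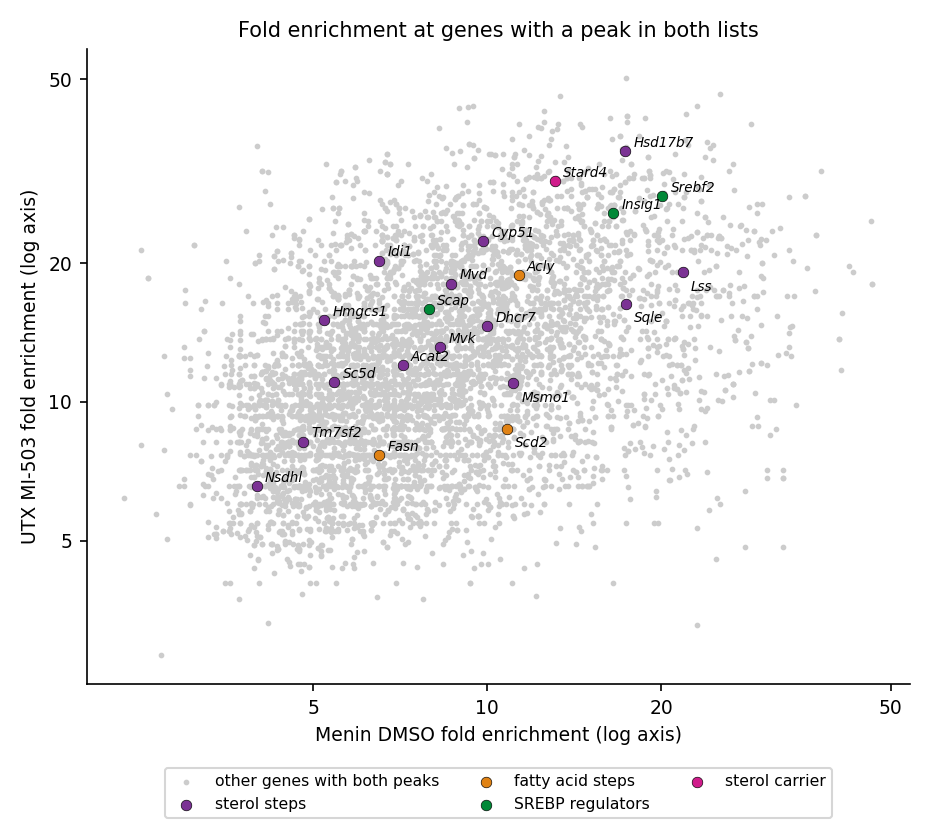
Menin DMSO fold (horizontal, log axis) against UTX MI-503 fold (vertical, log axis) for the 21 members with both peaks, coloured by role, over the other genes with both peaks (grey). Spearman correlation was 0.66 over the 21 members and 0.43 over all 6210 genes; Srebf2, Insig1, Stard4 and Hsd17b7 lie at the upper right and Nsdhl at the lower left.

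Peaks were placed at the 5′ ends of the genes, as they were over all genes with a peak. For Menin DMSO all 18 members with a known strand had the peak at the 5′ end, as did 5385 of 5636 over all genes. Of the member summits 17 of 18 (94.4%) lay within 250 bp of a start, against 81.2% over all genes. For UTX MI-503 19 of 20 were at the 5′ end, Srebf1 being the exception, against 6225 of 6540 over all genes. Of these summits 18 of 20 (90%) lay within 250 bp of a start, against 77.4%. Idi1 was the Menin exception at 289 bp, and Srebf1 and Acaca were the UTX exceptions.

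Several of these 5′ ends lie close to the start or end of another gene, so a peak there cannot be given to the pathway gene alone. Menin DMSO summits at 6 of 21 members lay within 1 kb of the start or end of another protein-coding or long noncoding RNA gene. The share over all genes with a peak was not computed. Protein-coding neighbours were Mmab at Mvk, Vps51 at Tm7sf2, Cetn2 at Nsdhl and Nadsyn1 at Dhcr7. Long noncoding RNA genes were 9330133O14Rik at Mvd and 3110045C21Rik at Hsd17b7. Mmab encodes an enzyme of vitamin B12 metabolism and Vps51 a vesicle tethering subunit. The same 6 genes lay at the UTX summits, where Tada2a at Acaca and Rai1 at the 3′ end of Srebf1 brought the number to 8 of 24. Lss, Sqle, Cyp51, Srebf2, Insig1, Acly and Stard4 had no such neighbour.

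NF-Y boxes were found in most of the sterol promoters. It was found in the window from 250 bases before to 50 after a start, in 21 of 32 member entries (65.6%), against 38.2% of all 21263 entries. Among all promoters with a summit within 1 kb the share was 43% where the summit was of Menin and 41.3% where it was of UTX. By gene, 14 of 15 sterol steps with an entry held it, Acat2 being the exception, as did 2 of 4 fatty acid steps and 4 of 5 regulators. Over all genes with an entry 7402 of 17492 held it, and 2682 of 5856 of those with a Menin summit. A gene with several starts has more windows in which a match can fall. Dhcr7 counts among the sterol steps only through its inner start at position 143830214. Its first start, where its higher pair of peaks lies, holds 0 boxes, as does its start at position 143823399. Mvk held 5 matches, Hmgcs1 and Nsdhl 4 each, and Hsd17b7, Msmo1, Fasn and the outermost start of Insig2 3 each. Those of Fasn include an overlapping pair in which CCAATTGG reads as a match on both strands, and the Insig2 start had no peak within 1 kb. Ebp, with no peak, held 2 in the promoter shown above, and Pmvk held 1 at its outer start.

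Distance from summit to nearest NF-Y box was measured only where the summit itself fell in a window that holds a box. The window thus limits the distance in advance, and a window with more boxes tends to give a shorter one. Cyp51 and Idi1 hold boxes but have their summits further downstream than the window, and are left out. Fasn is left out for UTX alone, because its UTX summit lay 102 bp downstream of the start. For Menin DMSO the median distance was 34 bp over 13 members, the same as over all genes, and 11 of 13 (84.6%) lay within 50 bp, against 63.9% of all genes. For UTX MI-503 it was 24.5 bp over 12 members against 36 bp, and 9 of 12 (75%) lay within 50 bp, against 61.2%. Srebf2 had its single box 5 bp from the Menin summit and 13 bp from the UTX summit. Mvk had both summits 6 bp from a box, and Acly had its box, at 37 bp downstream of the start, 95 and 60 bp away.

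The remaining motifs ranged from rare to more frequent than the NF-Y box. The sterol regulatory element in the exact form searched occurred in 1 of 32 entries, Hmgcs1, 137 bp before the start, against 1.19% of all entries; sites that depart from these letters were not searched. The E-box occurred in 6 of 32 (18.8%), at Dhcr7, Hsd17b7, Insig1, Sc5d and Scap, against 7.84% of all entries and 12.4% and 11.8% of those with a Menin or UTX summit. The windows of the Scap starts overlap, and the same E-box is counted in both. By gene it was 5 of 24, against 1559 of 17492. The GC box GGGCGG, the letters bound by SP1, occurred in 24 of 32 (75%), against 46.2% of all entries, and against 73.5% and 71.2% of those with a Menin or UTX summit. Both Scap windows share a GC box too. Median GC content was 61.8% for member windows, 56.3% for all windows and 62.7% and 62.3% for those with a summit, so the GC box and GC content of the members were near those of other promoters with peaks. A match is a description of the letters and not evidence of binding.

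**Figure D5:**
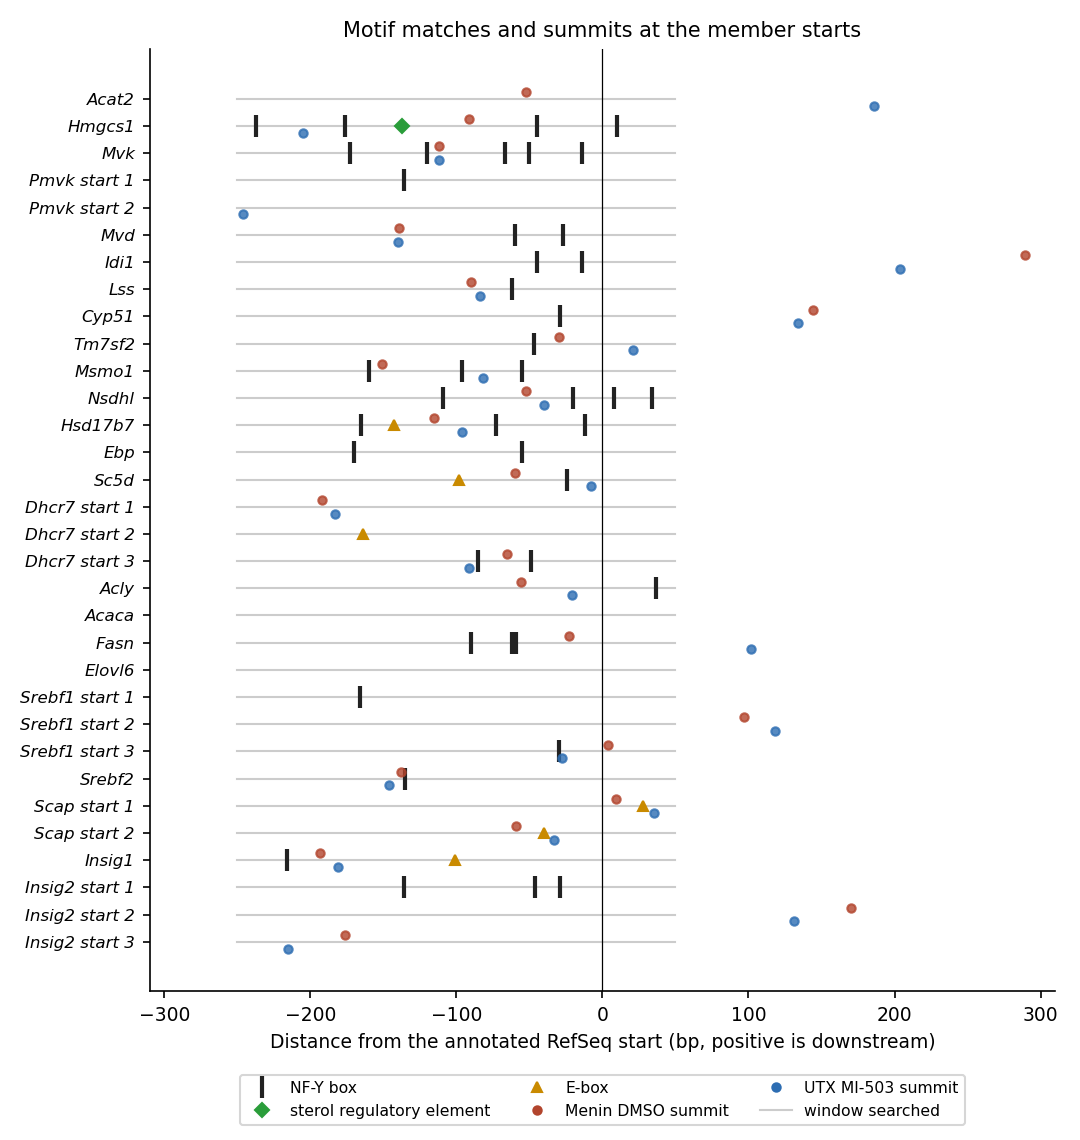
Exact motif matches and peak summits around the RefSeq starts of 24 genes, in bp from the start with positive downstream; black bars are NF-Y boxes, the green diamond the sterol regulatory element, triangles E-boxes, circles summits, and grey lines the window searched. Summits of Mvk, Msmo1, Srebf2 and Hsd17b7 lie among their NF-Y boxes, Idi1 and Cyp51 have summits downstream of theirs, and Ebp has boxes and no summit.

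Genes of adjoining pathways were counted in the same way. Of 71 such genes 42 (59.2%) had a Menin DMSO peak, 45 (63.4%) a UTX MI-503 peak, 0 a Menin MI-503 peak and 1 a UTX DMSO peak. That gene was Syvn1, a ubiquitin ligase of the endoplasmic reticulum, at 10.8-fold. Of 13 other isoprenoid and prenylation genes, 6 had Menin and 8 UTX, among them Ggps1, which makes geranylgeranyl diphosphate (13.4-fold and 18.2-fold), and Dhdds, which makes dolichol (20.9-fold and 23-fold). The folds of Dhdds were the highest of that list, whose medians were 7.07 for Menin and 10.2 for UTX. Of 9 other SREBP processing and sterol-regulated degradation genes, 6 and 8 had a peak, with Mbtps1, the site-1 protease that cleaves SREBPs, at 12-fold and 17.5-fold. The medians of that list were 8.75 and 8.85.

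The other fatty acid synthesis genes had the lowest shares among these 5 lists. Of 22 genes for synthesis, elongation and desaturation, 9 (40.9%) had Menin and 10 (45.5%) UTX, against the 31.2% and 36.5% of all genes. Acss2, which makes acetyl-CoA from acetate, had 20.9-fold and 12.1-fold, and Slc25a1, the mitochondrial citrate carrier, had 21.4-fold and 7.66-fold. The medians of the list were 8.49 for Menin and 7.97 for UTX, and 21.4 was its highest Menin fold. Of 13 sterol efflux, storage and lysosomal export genes, which work against cholesterol synthesis or beside it, 11 (84.6%) had Menin and 10 (76.9%) UTX, with Mylip, the ligase that degrades the LDL receptor, at 7.31-fold and 32.8-fold. The medians of that list were 7.31 and 10.8, and the UTX fold of Mylip was its highest. Of 14 fatty acid oxidation genes 10 (71.4%) had Menin and 9 (64.3%) UTX, with Cpt2 at 29.8-fold and 18.7-fold. The medians there were 7.11 and 11.6, and the Menin fold of Cpt2 was the highest of the list. The Menin share of the efflux list was thus above the 70% of the 30 synthesis genes, and that of the oxidation list was close to it. The UTX shares of both lists were below the 80%. With 13 and 14 genes in these lists, a single gene moves a share by several percent.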

How the data were processed

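ChIP-seq peak lists of 4 libraries were used, 1 per condition. Peaks were called with MACS2 against mm10, per the submitters' processing notes, which also name hg38. Aligner, filters and threshold were not given in the sources used here. Per the peak names in the deposited lists, both Menin lists share 1 vehicle input and both UTX lists another, and each list comes from a single library. The deposited fold (a ratio) is pileup plus 1 over local background plus 1. The deposited −log10 values are those of the p-value and q-value at the summit. Scores in the deposited lists equal −log10 q times 10 without its decimals. Summit offsets are deposited as bases from the peak start (other), and positions are printed from 1.

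Genes and promoter windows were taken from RefSeq tables of GRCm38.p6; no genome sequence was used, and 24 of the 30 genes matched the promoter table, with 32 entries. The members and all gene lists were chosen with earlier results of these data known. Named were all 30 genes, neighbours within 1 kb of a summit, and of the related lists up to 4 genes with a peak, in list order; a gene that the rule takes is not reported here. Reads at each summit were recovered by solving the deposited fold and p-value together; whole reads, within 0.001, came out for 11189 of 11195 and 14230 of 14231 peaks of the long lists. The window count was checked on planted summits and the recovery on simulated pileups. Depth in reads is unknown. Ranks are by −log10 q. No p-value was computed. Alternatives covered the window, q and fold thresholds, list length, overlap, the choice of peak, starts and background. Python 3.11.15, numpy 2.4.6, pandas 2.3.3, scipy 1.17.1 and matplotlib 3.10.9 were used.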

Additional observations from a re-analysis of the deposited data

How the results depend on the processing

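Many of the 247 alternative values are counts of 0 or 1 in the Menin MI-503 and UTX DMSO lists, which hold few peaks and could hardly move. Of the 247, 246 stayed within 1.5 times the main count or near the main value. The exception was the count of fatty acid steps with a UTX MI-503 peak, 4 by the genes' outer ends and 2 by any start in the promoter table, an alternative chosen after seeing the data; Acaca has no peak at its tabulated start and Scd2 has no entry. Counted by outer ends, 19 to 22 of the 30 members had a Menin DMSO peak under the alternatives and 22 to 25 a UTX MI-503 peak. By any start the counts were 20 and 21 of the 24 members with an entry. Over all genes the share ran from 25% to 35.6% for Menin DMSO and from 33.2% to 41.6% for UTX MI-503. No paired analysis was possible because each condition has 1 library and no replicates, so none could be left out. A gene missing from a list had no peak at the depth and threshold used, which does not show that the protein is absent.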
